A study of Caenorhabditis elegans with 12 samples.

Results

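The genes described here build the eggshell of Caenorhabditis elegans or act on the oocyte and zygote when the egg is activated at fertilization. They were taken by name from the deposited expression matrix, namely cbd-1, chs-1, cpg-1, cpg-2, egg-1, egg-2, egg-3, egg-4, egg-5 and mbk-2, which makes 10 genes of 12595. The list is of names and has no threshold on a measured value, but it was drawn up with earlier results of these data known. All 10 were found under these names, and all 10 had a mean of at least 1 CPM (reads scaled to the library total, the unit used throughout).

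RNA came from whole day 1 adults, pooled within each sample and grown at 25°C, in 4 groups of 3 biological replicates. The glp-1(ts) strain carries bn18ts, a temperature-sensitive allele of glp-1/Notch, the receptor gene that germline stem cells (GSCs) need to proliferate. At this temperature it has few GSCs and no eggs, so it is a GSC(−) animal. WT is the N2 strain, which held a full germline and eggs because no drug was used to stop offspring from forming. Each strain was fed HT115 bacteria with skn-1 RNAi or with the empty L4440 vector. This feeding began at the egg stage by the sample labels and at the L1 larval stage by the study's methods. The groups are thus skn-1 RNAi-labelled glp-1(ts), glp-1(ts) on vector, WT on skn-1 RNAi and WT on vector.

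A C. elegans oocyte is fertilized as it enters the spermatheca, and within minutes the zygote surrounds itself with a layered shell. The outer vitelline layer is present before fertilization, chitin is then polymerized beneath it, and chondroitin proteoglycans form the layer inside. In parallel, a group of cortical proteins releases a kinase that marks oocyte proteins for destruction, so that meiosis ends and embryonic development begins. The mRNAs for these proteins are made ahead of time in the growing germ cells of the adult gonad.

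The values were log2 CPM after quantile normalization, which brings all libraries to nearly 1 distribution (CPM totals lay between 980316 and 980342). Read depth is unknown from such values, so no counting error is given, and their precision rests on 3 libraries a group. Whole-animal libraries cannot separate fewer cells of a type from less RNA per cell. The targeted gene skn-1 was at 4.56, 5.03 and 4.37 log2 CPM in WT on skn-1 RNAi, against 6.38, 6.50 and 6.10 in WT on vector. It was at 5.73, 6.60 and 6.08 log2 CPM in the skn-1 RNAi-labelled glp-1(ts) libraries, against 6.07, 6.17 and 6.23 in glp-1(ts) on vector. It fell by 1.67 on the log2 scale in WT (adjusted p = 0.00782, limma with Benjamini-Hochberg adjustment), but its difference of −0.02 in glp-1(ts) was not called (adjusted p = 0.991), and those libraries are therefore named by their label. The study reports genes whose expression skn-1 RNAi reduced in GSC(−) animals. In the fit used here 38 of 12595 genes were called lower and 7 higher between those 2 groups. Whether the RNAi acted in these animals was not tested. Replicate 3 of glp-1(ts) on vector stood apart, with a mean of 3.25 log2 CPM over 19 germline genes, against 2.25 and 2.33 in replicates 1 and 2.

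On vector, all 10 genes were lower in glp-1(ts) animals than in WT, and in none did the libraries of the strains overlap. Their median log2 fold change was −3.20, or 9.18 times lower, and it ran from −4.02 for cbd-1 to −1.68 for mbk-2. Over all 12595 genes, 38% were called lower, 39.7% were lower with groups that did not overlap, and the median log2 fold change was 0.27. Calls are Benjamini-Hochberg adjusted p-values under 0.05 from limma, fitted over all genes and all 12 libraries.

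**Figure D1:**
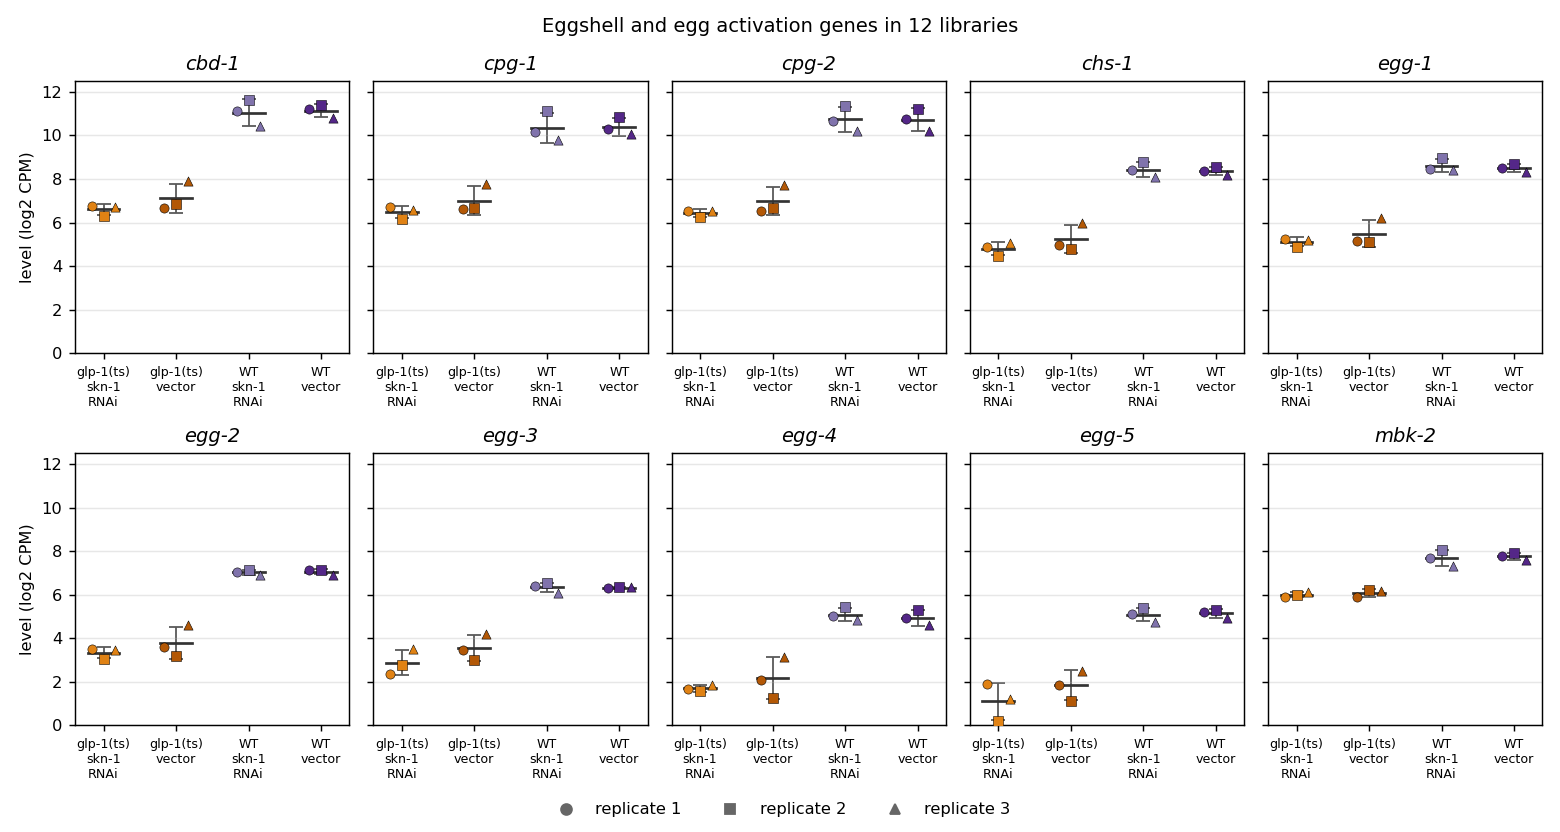
Levels of the 10 genes in log2 CPM (vertical axis) in the 3 libraries of each of the 4 groups (horizontal axis), where symbols mark the replicate, lines the group mean and bars the SD. Every glp-1(ts) library sits below every WT library for each gene, and replicate 3 is the highest glp-1(ts) vector library for 9 genes but not for mbk-2, where it had 6.18 log2 CPM and replicate 2 had 6.20.

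Genes of shell proteins, cbd-1 and cpg-2, had the largest differences. The gene cbd-1 (WBGene00010351) encodes a chitin-binding protein of the vitelline layer, and occupies bases 11372991 to 11377627 of chromosome IV (build WBcel235). It was at 6.65, 6.83 and 7.89 log2 CPM in glp-1(ts) on vector, against 11.23, 11.39 and 10.81 in WT on vector. All 3 glp-1(ts) libraries were far below the lowest WT library, and the spread within each strain was smaller than the gap between them. With a log2 fold change of −4.02 (standard error 0.32, Benjamini-Hochberg adjusted p = 1.52e-07, limma), cbd-1 was 16.2 times lower in glp-1(ts). This was rank 93 of the 12595 fold changes counted from the lowest, the first of the 10 genes.

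Both chondroitin proteoglycan genes followed. CPG-1 and CPG-2 carry chondroitin chains and bind chitin. The gene cpg-1 (WBGene00000465) lies on chromosome III from 4489359 to 4491392, and cpg-2 (WBGene00015102) on chromosome III from 7102092 to 7103990. For cpg-2 the levels were 6.55, 6.67 and 7.72 log2 CPM in glp-1(ts), against 10.74, 11.23 and 10.21 in WT, all on vector. For cpg-1 they were 6.61, 6.67 and 7.76 log2 CPM in glp-1(ts), against 10.28, 10.86 and 10.07 in WT. In both genes replicate 3 was the highest glp-1(ts) library and replicate 2 the highest WT library. The fall was 13.4 times for cpg-2 (log2 fold change −3.75, standard error 0.33, adjusted p = 3.09e-07) and 10.5 times for cpg-1 (−3.39, standard error 0.34, adjusted p = 9.75e-07), with Benjamini-Hochberg adjustment in limma.

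CHS-1 is the chitin synthase that makes the chitin layer. Its gene (WBGene00000496, chromosome I from 7554855 to 7559916) was at 4.98, 4.79 and 5.996 log2 CPM in glp-1(ts) on vector, against 8.36, 8.57 and 8.21 in WT on vector. Its highest glp-1(ts) library, replicate 3, was still below all WT libraries. The fall in glp-1(ts) was 8.72 times, a log2 fold change of −3.12 (standard error 0.27, Benjamini-Hochberg adjusted p = 2.72e-07, limma).

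EGG-1 and EGG-2 are oocyte membrane proteins with LDL receptor repeats that sperm need for entry. The gene egg-1 (WBGene00015083) lies on chromosome III from 5728180 to 5730159, and egg-2 (WBGene00019811) on the same chromosome from 7058527 to 7060583. On vector, egg-1 was at 5.17, 5.09 and 6.19 log2 CPM in glp-1(ts), against 8.51, 8.71 and 8.32 in WT. The relative egg-2 was at 3.58, 3.18 and 4.61 log2 CPM in glp-1(ts), against 7.15, 7.11 and 6.92 in WT. The WT values of egg-2 lay close together, with an SD of 0.12 (n = 3), whereas those of glp-1(ts) had an SD of 0.74 (n = 3). Both genes fell, egg-1 by 8.18 times (log2 fold change −3.03, standard error 0.25, adjusted p = 1.85e-07) and egg-2 by 9.66 times (−3.27, standard error 0.27, adjusted p = 1.86e-07), with Benjamini-Hochberg adjustment in limma.

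EGG-3, EGG-4 and EGG-5 resemble protein tyrosine phosphatases but lack catalytic activity. EGG-3 holds CHS-1 and the kinase MBK-2 at the oocyte cortex, and EGG-4 and EGG-5 bind MBK-2 and keep it from acting before fertilization. The gene egg-3 (WBGene00009701, chromosome II from 10882408 to 10884441) was at 3.44, 3.00 and 4.19 log2 CPM in glp-1(ts) on vector, against 6.30, 6.36 and 6.33 in WT on vector. It had the narrowest spread of the 10 genes in WT on vector, with an SD of 0.03 (n = 3), and was 6.89 times lower in glp-1(ts) (log2 fold change −2.79, standard error 0.29, Benjamini-Hochberg adjusted p = 1.40e-06, limma).

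The near-identical pair egg-4 and egg-5 had the lowest levels of the group. The gene egg-4 (WBGene00020652, chromosome I from 3932210 to 3934813) was at 2.09, 1.24 and 3.15 log2 CPM in glp-1(ts), against 4.92, 5.31 and 4.59 in WT, all on vector. Its partner egg-5 (WBGene00020035, chromosome I from 4168984 to 4171589) was at 1.87, 1.13 and 2.51 log2 CPM in glp-1(ts), against 5.22, 5.32 and 4.91 in WT. The genes have 5 exons each, with 2362 and 2364 exon bases, and lie 234.2 kb apart on opposite strands. Reads that match both could have been split or dropped in the counting, so their separate values are uncertain. With that limit, egg-4 was 6.87 times lower (log2 fold change −2.78, standard error 0.36, adjusted p = 9.91e-06) and egg-5 9.94 times lower (−3.31, standard error 0.39, adjusted p = 3.77e-06) in glp-1(ts), with Benjamini-Hochberg adjustment in limma. Added together as 1 gene, they had a log2 fold change of −3.04.

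MBK-2 is the DYRK-family kinase that drives the oocyte-to-embryo transition once it is released. Its gene (WBGene00003150) is the longest of the 10, on chromosome IV from 13009158 to 13035961, with 14 annotated transcripts. It was at 5.88, 6.20 and 6.18 log2 CPM in glp-1(ts) on vector, against 7.76, 7.93 and 7.59 in WT on vector. The difference was the smallest of the 10 genes, 3.20 times lower (log2 fold change −1.68, standard error 0.17, Benjamini-Hochberg adjusted p = 8.92e-07, limma), and stood at rank 2480 from the lowest. The other 9 genes stood between ranks 93 and 904. Unlike the others, mbk-2 did not have its highest glp-1(ts) vector level in replicate 3.

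**Figure D2:**
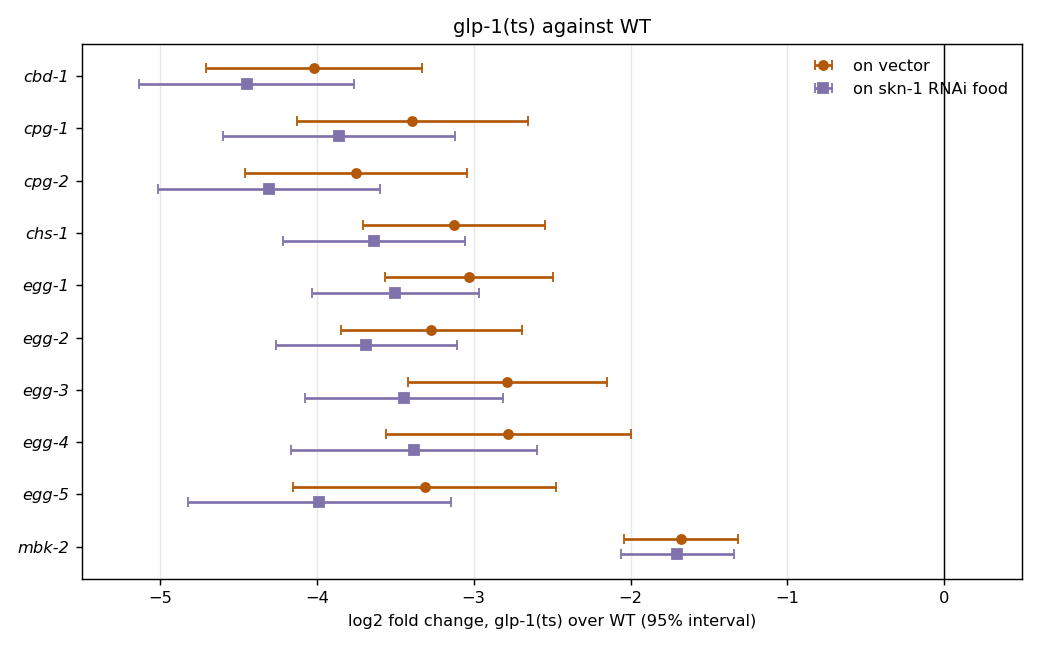
Log2 fold change of glp-1(ts) over WT (horizontal axis) for each of the 10 genes (vertical axis), with bars for the 95% interval from limma, among vector libraries (circles) and among libraries labelled skn-1 RNAi (squares). All intervals lie below 0, those of mbk-2 at −1.68 and −1.70 closest to it and those of cbd-1 at −4.02 and −4.45 among the farthest.

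The same strains were compared among the libraries labelled skn-1 RNAi, which share no library with the vector comparison. Both comparisons use the same estimate of the spread, and equal-numbered libraries of a strain had correlated residuals, so they are not independent. All 10 genes were again called lower in glp-1(ts), where 38.1% of all genes were called lower, and none overlapped, where 38.4% of all genes were lower without overlap. Their median log2 fold change was −3.66 (12.6 times lower), beside 0.32 for all genes. The gene cbd-1 was at 6.76, 6.31 and 6.73 log2 CPM in the skn-1 RNAi-labelled glp-1(ts) libraries, against 11.11, 11.62 and 10.42 in WT on skn-1 RNAi, a log2 fold change of −4.45 or 21.8 times. For cpg-2 the levels were 6.53, 6.25 and 6.54 log2 CPM in glp-1(ts), against 10.68, 11.35 and 10.21 in WT, which is 19.8 times lower. As on vector, these were the lowest fold changes of the 10 genes. The kinase gene mbk-2 again came last, at 5.88, 5.99 and 6.10 log2 CPM in glp-1(ts), against 7.70, 8.06 and 7.33 in WT, which is 3.25 times lower. The other 7 genes had log2 fold changes from −3.99 for egg-5 to −3.38 for egg-4, and adjusted p-values of the 10 genes were at most 1.22e-06 (limma with Benjamini-Hochberg adjustment).

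Levels were compared between genes per kb of exon. In WT on vector, cpg-2 was highest, at 986 CPM per kb (geometric mean of 3 libraries), followed by cpg-1 at 717 and cbd-1 at 537, which are the genes for secreted shell proteins. The ranges of the libraries overlapped for these neighbours. Next came egg-1 at 204 CPM per kb, chs-1 at 77.5 and egg-2 at 75.7. The genes egg-3 and mbk-2 were level at 44.8 CPM per kb, and egg-5 at 15.035 and egg-4 at 13.0 were lowest. The pairs chs-1 and egg-2, egg-3 and mbk-2, and egg-5 and egg-4 overlapped in their ranges, while the steps from cbd-1 to egg-1, from egg-1 to chs-1, from egg-2 to egg-3 and from mbk-2 to egg-5 did not. In glp-1(ts) on vector the order began in the same way, with cpg-2 at 73.3 CPM per kb, cpg-1 at 68.3, cbd-1 at 33.1 and egg-1 at 24.9. Here mbk-2 came next at 13.99 CPM per kb, above chs-1 at 8.89, egg-2 at 7.83 and egg-3 at 6.50, although its range overlapped with those of chs-1 and egg-2. Last were egg-4 at 1.89 and egg-5 at 1.51 CPM per kb, whose ranges overlapped. The ranges of neighbours overlapped throughout this order, except in the steps from egg-1 to mbk-2 and from egg-3 to egg-4. Summed, the 10 genes held 449, 475 and 931 CPM in glp-1(ts) on vector, against 6565, 8295 and 5123 CPM in WT on vector.

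Because glp-1(ts) animals hold less of the germline, the same fit was run on levels relative to a list of 19 germline genes (P granule, meiotic and translational control genes such as pgl-1, gld-1 and htp-3), whose mean was subtracted in each library. On this scale 0.651% of all genes were called lower and 86.6% were called higher in glp-1(ts), with a median of 3.20. Of the 10 genes 2 were called lower and 1 was called higher. Of the 19 germline genes themselves 2 were called lower and 2 higher, with differences from −0.96 to 1.36. The vitelline layer gene cbd-1 was at 4.402, 4.499 and 4.637 log2 units above the germline mean in glp-1(ts) on vector, against 5.72, 5.77 and 5.30 in WT on vector. Its groups did not overlap, and its relative level was lower by a log2 difference of −1.09 (standard error 0.27, Benjamini-Hochberg adjusted p = 0.000959, limma). The proteoglycan gene cpg-2 was at 4.30, 4.34 and 4.47 log2 units in glp-1(ts), against 5.23, 5.61 and 4.71 in WT, a difference of −0.82 (standard error 0.28, Benjamini-Hochberg adjusted p = 0.0105, limma). Without replicate 2 of WT on vector the call for cpg-2 was lost (Benjamini-Hochberg adjusted p = 0.0814, limma), which left 2 of the 3 calls.

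The kinase gene mbk-2 went the other way. It was at 3.62, 3.86 and 2.92 log2 units above the germline mean in glp-1(ts) on vector, against 2.25, 2.31 and 2.09 in WT on vector. Every glp-1(ts) library was above every WT library, with replicate 3 the nearest to WT, and the difference was 1.26 (standard error 0.26, Benjamini-Hochberg adjusted p = 0.000108, limma). The other 7 genes were not called. Their relative differences ran from −0.46 for cpg-1 (95% interval −1.06 to 0.14) to 0.15 for egg-4 (−0.47 to 0.78). Without replicate 3 of glp-1(ts) on vector, egg-2 was called as well, at −0.43 (Benjamini-Hochberg adjusted p = 0.0314, limma). The share of all genes called without that library is not given.

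Other genes of the same steps were read from lists. Of 5 other cpg genes measured, 3 were lower and 2 higher in glp-1(ts) on vector, where 39.4% of all genes were called higher. The genes cpg-3 and cpg-4 fell by 2.91 and 2.89 on the log2 scale, less than cpg-1 (3.39) and cpg-2 (3.75), and cpg-8 by 0.90. Relative to the germline list cpg-3 and cpg-4 were at 0.02 and 0.04 and were not called. By contrast cpg-9 was higher by 2.17, at 6.31 ± 0.37 log2 CPM in glp-1(ts) and 4.15 ± 0.57 in WT (SD, n = 3 each). The increase of cpg-7, 3.92 on the log2 scale, was at low levels, 1.25 ± 0.79 log2 CPM in glp-1(ts) and −2.67 ± 0.40 in WT (SD, n = 3 each).

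The list for chitin and chondroitin synthesis had 13 of 14 genes lower and none higher, beside 38% and 39.4% of all genes, with a median of −1.22. Its lowest values belonged to enzymes that make the UDP-N-acetylglucosamine from which chitin is built, gfat-2 (named F22B3.4 in the table) at −3.29 and gna-2 at −2.74. The related gna-1, at 0.20, was not called, and the chondroitin gene mig-22 fell by 0.57. The paralogs chs-2 and mbk-1 were not called lower. The pharyngeal chitin synthase gene chs-2 differed by −0.69 and was not called (95% interval −1.71 to 0.32), and mbk-1, the other kinase gene of the MBK pair, was higher by 0.78 in glp-1(ts).

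A further list held genes needed for the permeability barrier of the egg. Of 9 genes, 3 were lower, 4 were higher and 2 were not called, with a median of 0.37. These counts were near the shares of all genes, 38% lower and 39.4% higher, with a median of 0.27. The acyltransferase gene dgtr-1 fell by 3.23 and the cytochrome P450 genes cyp-31A3 and cyp-31A2 fell by 2.64 and 2.63. These cytochromes are near copies, so that reads could be shared between them. The lipid synthesis genes pod-2 and fasn-1, which encode acetyl-CoA carboxylase and fatty acid synthase, were higher by 0.93 and 0.59, as were perm-2 (0.63) and emb-8 (0.39).

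Of 14 genes that regulate MBK-2 or act with it on its targets, 13 were lower in glp-1(ts) on vector and 1 was higher, beside 38% and 39.4% of all genes, with a median of −2.75. The polo kinase gene plk-1 and mex-6, whose protein is primed by MBK-2 for binding by PLK-1, had the lowest values at −3.22 and −3.07. The genes of the MBK-2 substrate OMA-1 and its partner OMA-2 fell by 2.65 and 2.96. The kinase genes kin-19, which fell by 0.42, and gsk-3, which was higher by 0.37, had the smallest changes. Both are also used widely outside the germline, and the part of such use in their values was not tested. Calls for all of these lists are from the same limma fit with Benjamini-Hochberg adjustment.

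**Figure D3:**
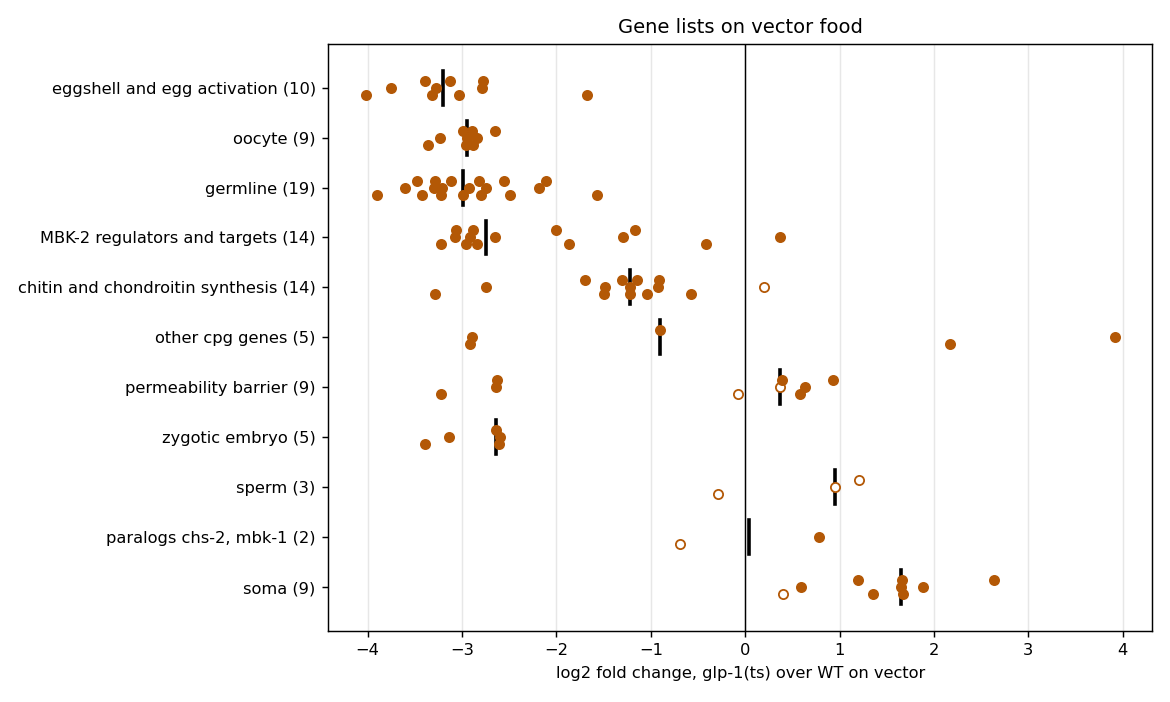
Log2 fold change of glp-1(ts) over WT on vector (horizontal axis) for each measured gene of the lists (rows, with the number of genes), with filled points for called genes, open points for others and a bar at the median. The 10 eggshell and egg activation genes have a median of −3.20, near −2.95 for oocyte genes and −2.99 for germline genes, while the soma list has a median of 1.65.

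Markers of cell types were read in the same comparison, where 38% of all genes were called lower and 39.4% higher. Germline, oocyte and embryo markers were lower like the 10 genes, and sperm and soma markers were not. All 19 germline genes were lower in glp-1(ts) on vector (median −2.99, from gld-1 at −3.90 and pgl-1 at −3.60 to nos-3 at −2.11 and him-17 at −1.57), with a summed level of 168 to 361 CPM in glp-1(ts) and 1767 to 2088 CPM in WT. All 9 oocyte genes were lower as well (median −2.95, from rme-2, the yolk receptor gene, at −3.36 to oma-1 at −2.65), with sums of 295 to 591 CPM in glp-1(ts) and 2652 to 3815 CPM in WT. Each of the 5 measured genes expressed early in embryos was lower (median −2.64), at sums of 1.23 to 2.10 CPM in glp-1(ts) and 8.51 to 9.95 CPM in WT. Of 8 listed sperm genes only 3 were measured, and none of them was called. Their sums were low, 5.05 to 6.33 CPM in glp-1(ts) and 5.33 to 5.71 CPM in WT. On vector, spe-11 and fer-1 lay between −2.05 and 0.35 log2 CPM, so this list says little about sperm. Of 9 genes of intestine, muscle and neurons 8 were higher (median 1.65), with sums of 2887 to 4557 CPM in glp-1(ts) and 1082 to 1887 CPM in WT. Beyond the comparison relative to germline genes, the part of germ cell content in the members' differences was not tested.

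Libraries of a group shifted together. In replicate 3 of glp-1(ts) on vector all 10 genes were above their group mean, by 0.69 on average on the log2 scale, beside 0.61 for oocyte genes and 0.64 for germline genes. Without this library the median log2 fold change of glp-1(ts) over WT on vector was −3.57, and all 10 genes were still called. In replicates 2 and 3 of WT the shifts of the 10 genes were near those of oocyte genes and larger than those of the germline list, and in replicate 1 all 3 were near 0. Replicate 2 of WT on skn-1 RNAi was above its group by 0.39 for the 10 genes, 0.44 for oocyte genes and 0.12 for germline genes, and replicate 2 of WT on vector by 0.24, 0.25 and 0.08. Replicate 3 was below its group in both, at −0.36, −0.42 and −0.13 on skn-1 RNAi and at −0.24, −0.22 and −0.04 on vector. The age or egg content of these samples was not measured, and their part in these shifts was not tested.

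**Figure D4:**
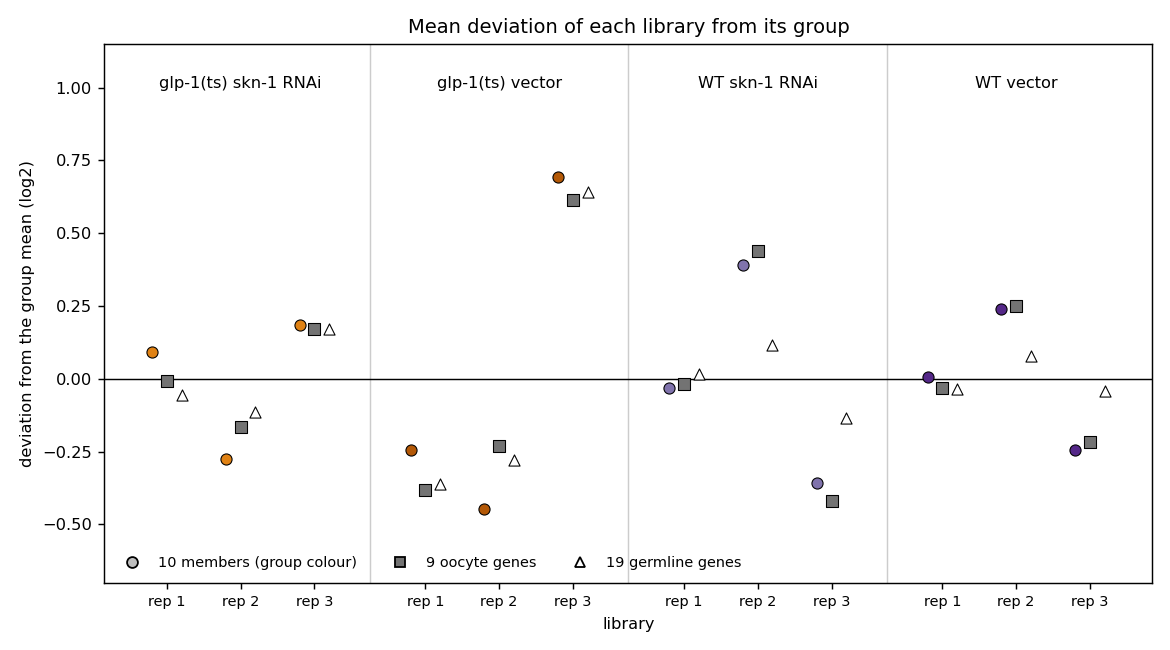
Mean deviation of each library from its group mean in log2 units (vertical axis) for the 10 genes (circles), 9 oocyte genes (squares) and 19 germline genes (triangles), in the 3 replicates of each group (horizontal axis). Replicate 3 of glp-1(ts) on vector lies 0.69, 0.61 and 0.64 above its group, and in the WT groups the circles follow the squares, with replicate 2 high and replicate 3 low.

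Closely related members were set against each other within each library. On vector, cpg-2 was level with cpg-1 in glp-1(ts), at −0.03 ± 0.03 log2 units (cpg-2 minus cpg-1), and above it in WT, at 0.33 ± 0.17 (SD, n = 3 each). The difference between egg-1 and egg-2 was 1.69 ± 0.19 in glp-1(ts) and 1.45 ± 0.13 in WT, and that between egg-4 and egg-5 was 0.32 ± 0.29 in glp-1(ts) and −0.21 ± 0.18 in WT (SD, n = 3 each). The strains did not overlap for the proteoglycan pair and for egg-4 and egg-5, and overlapped for egg-1 and egg-2. How often other gene pairs overlap was not measured, and the separate values of egg-4 and egg-5 are uncertain. Among the libraries labelled skn-1 RNAi, cpg-2 minus cpg-1 was −0.17, 0.07 and −0.06 in glp-1(ts), against 0.51, 0.24 and 0.43 in WT, again without overlap. The difference between egg-4 and egg-5 overlapped there, at −0.26, 1.39 and 0.67 in glp-1(ts), against −0.10, 0.03 and 0.06 in WT. With 3 libraries against 3 an exact permutation test cannot give a p below 0.1, so these pairs are described without a test.

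Over the 12 libraries the genes differed in how closely they followed their mean profile, measured as the root mean square difference of centred log2 levels. The chitin synthase gene chs-1 was closest at 0.0489 and egg-1 next at 0.101, while cbd-1 was at 0.461 and mbk-2 farthest at 0.883. Among pairs, chs-1 and egg-1 were the closest at 0.103 and cbd-1 and mbk-2 the farthest at 1.31. The 5 other genes with the most similar profile were clec-87 (0.112), nasp-2 (0.117), mcm-2 (0.117), puf-5 (0.123) and hpo-40 (0.124). These distances are a description, with no test, over libraries of 4 groups whose strains differ for all 10 genes.

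Whether skn-1 RNAi changed these genes was asked within each strain. In WT none of the 10 genes was called, where 0.175% of all genes were called in either direction, and none had an unadjusted p under 0.05, where 5.95% of all genes did (limma). The log2 fold changes ran from −0.09 for cbd-1 to 0.15 for egg-4, with 5 genes below 0 and a median of −0.02, beside 0.01 for all genes. The groups overlapped for every gene, where 10.8% of all genes did not overlap. The overlap was seen for egg-3, at 6.38, 6.52 and 6.10 log2 CPM in WT on skn-1 RNAi and 6.30, 6.36 and 6.33 in WT on vector. The 95% intervals were narrowest for mbk-2 (−0.43 to 0.29) and widest for egg-5 (−0.90 to 0.78), so that changes within these bounds could not be seen in this fit. These widths use a spread pooled with the glp-1(ts) libraries. On skn-1 RNAi and vector the SDs of egg-5 were 0.32 and 0.21 in WT, and 0.86 and 0.69 in glp-1(ts). Those of mbk-2 were 0.36 and 0.17 in WT, and 0.11 and 0.18 in glp-1(ts) (n = 3 each). The direction of these small values turned for each of the 10 genes when 1 or another library was left out.

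In glp-1(ts), where skn-1 mRNA did not fall, none of the 10 genes was called between the libraries labelled skn-1 RNAi and those on vector, where 0.357% of all genes were called. All 10 values were below 0, from −0.74 for egg-5 to −0.09 for mbk-2, with a median of −0.49, beside 0.01 for all genes. For oocyte genes the median was −0.38 and for germline genes −0.40. The gene egg-3 had the lowest unadjusted p of the 10 (0.0427, where 10.5% of all genes were under 0.05), at 2.35, 2.79 and 3.52 log2 CPM in the libraries labelled skn-1 RNAi and 3.44, 3.00 and 4.19 on vector, which overlap. Its log2 fold change was −0.66 (95% interval −1.29 to −0.02, Benjamini-Hochberg adjusted p = 0.466, limma). This p and interval use 1 spread pooled over all 4 groups. The SDs of egg-3 on skn-1 RNAi and vector were 0.59 and 0.60 in glp-1(ts), but 0.21 and 0.03 in WT (n = 3 each). The interval therefore does not show the wider spread of the glp-1(ts) libraries alone. The groups did not overlap for cpg-2 alone, at 6.53, 6.25 and 6.54 log2 CPM in the libraries labelled skn-1 RNAi, against 6.55, 6.67 and 7.72 on vector, where 14.6% of all genes did not overlap. The number of genes at an unadjusted p under 0.05 depended on the pairing of equal replicate numbers. With a replicate block within each strain it was 8 of the 10, where 16.2% of all genes were, but none was called, where 1.57% were, and the lowest Benjamini-Hochberg adjusted p was 0.0791 for egg-3 (limma). In that fit 1 of the 10 was under 0.05 without replicate 3 of glp-1(ts) on vector, where 12.4% of all genes were. The skn-1 RNAi-labelled replicate 3 then had no partner in its block, so that this fit rests on replicates 1 and 2. With no block, and without replicate 3 of glp-1(ts) on vector, which has more germline transcripts, the median over the 10 genes was −0.11. The values then ran from −0.40 to 0.04. Without replicate 1 or 2 of glp-1(ts) on vector instead, the median was −0.65 or −0.69.

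**Figure D5:**
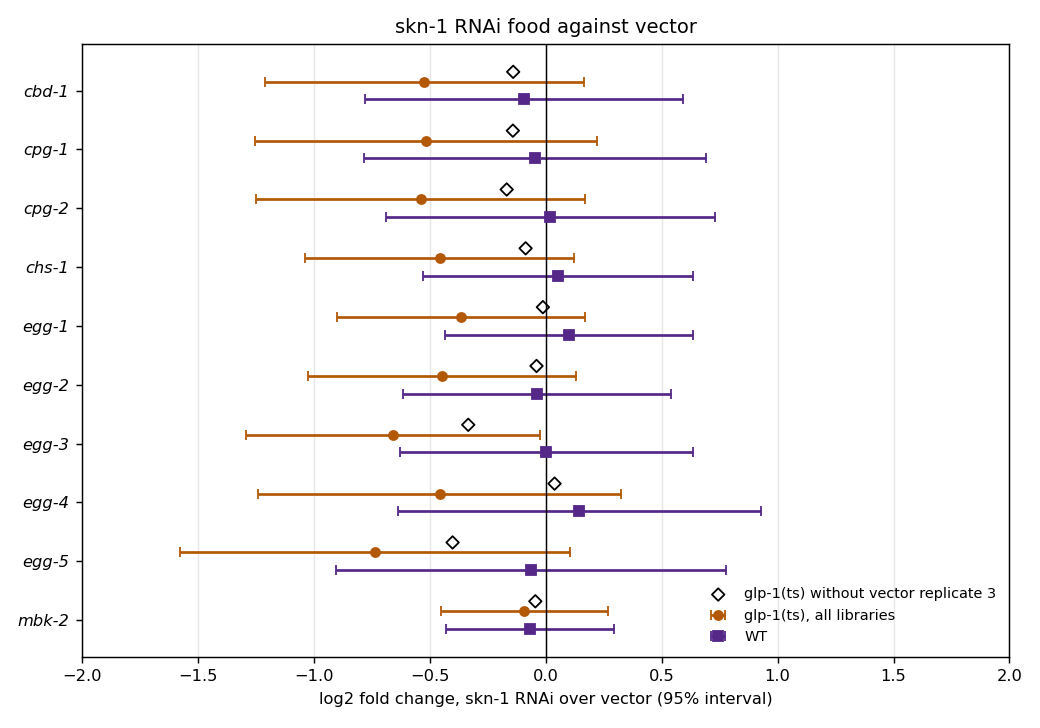
Log2 fold change of skn-1 RNAi over vector (horizontal axis) for the 10 genes (vertical axis) in glp-1(ts) (circles) and WT (squares), with 95% intervals from limma, and in glp-1(ts) without vector replicate 3 (open diamonds). Every WT interval includes 0, the glp-1(ts) values have a median of −0.49, and without that library their median is −0.11. Without vector replicate 1 or 2 instead (not drawn), it is −0.65 or −0.69.

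An interaction term tested whether the effect of the skn-1 RNAi label differed between the strains (glp-1(ts) minus WT). None of the 10 genes was called, with adjusted p-values of at least 0.859 (limma with Benjamini-Hochberg adjustment), and none of all genes was called (0%). At an unadjusted p under 0.05 there were 0 of the 10 genes and 745 of all genes, 5.92%. The differences ran from −0.67 for egg-5 to −0.02 for mbk-2, with a median of −0.49. This median was −0.65, −0.71 or −0.11 without replicate 1, 2 or 3 of glp-1(ts) on vector. The comparisons within a strain use the same vector libraries as that between the strains on vector, so their values are not independent of it.

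The annotation placed the 10 genes on chromosomes I (3 genes), II (1), III (4) and IV (2). The closest members were egg-2 and cpg-2, 41.5 kb apart on chromosome III. In 4 genes some exon bases are shared with another annotated gene, 5 bases of chs-1 with T25G3.3 on the same strand, 42 bases of egg-1 with B0244.9, 21 bases of egg-3 with lurp-1 and 6 bases of mbk-2 with F49E11.2, the last 3 on the opposite strand. No strand setting is given for the counting, so reads in these bases could not be assigned to 1 gene.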

How the data were processed

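RNA-seq of 12 whole-animal poly(A) libraries was analysed. The study's methods state that single reads were mapped with STAR to the WBcel235 build, that featureCounts (Subread) gave a number of reads per gene, that genes were kept when 2 or more samples reached 1 CPM, and that voom with quantile normalization followed. Tool versions are not given in the sources used here. The values the authors deposited are log2 CPM of 12595 genes, from which depth cannot be read. A second deposited table, with the authors' own fold changes, t statistics, p-values and adjusted values, was not used.

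The model of limma 3.58.1 (R 4.3.3) had 1 mean per group over all 12 libraries, 8 residual degrees of freedom, empirical Bayes with a trend, no weights and no further filter. Each gene had 1 spread for all 4 groups, also where the SDs of the strains differed. Calls were Benjamini-Hochberg adjusted p-values under 0.05 over all genes, and intervals are 95%. The fit was tested on simulated data with independent errors and few changed genes. That simulation does not cover correlated replicates, shared shifts of a library or changes in most genes. Replicates are separate biological samples by the labels. Annotation was Ensembl release 115 of WBcel235, which holds 12485 of the gene IDs and all 10 members.

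Within a strain, skn-1 RNAi and vector libraries of equal number had residuals that correlated over genes (r = 0.106, 0.314 and 0.247 for WT, r = 0.149, 0.337 and 0.233 for glp-1(ts)), which met the criterion for pairs (every r over 0.1). The reported fit has no block, and a replicate block within each strain was added after seeing the data. Across the strains r was 0.035, 0.161 and 0.119 on vector, and the criterion was not met.

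Genes named are the 10 members, skn-1, any gene of a list with at most 10 measured genes, the 2 highest and the 2 lowest fold changes of a longer list, and the 5 genes of most similar profile. The members and lists were chosen with earlier results of these data known. Alternatives were no trend, a filter at a mean of 1 CPM, log2(CPM + 1), only the groups compared, a replicate block, centring on the median or on 3 reference genes, adding egg-4 and egg-5, the oocyte list in place of the germline list, and leaving out each library.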

Additional observations from a re-analysis of the deposited data

How the results depend on the processing

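All 10 genes stayed lower in glp-1(ts), compared with WT on vector and among the libraries labelled skn-1 RNAi, with their calls, under every alternative and without any 1 library. With egg-4 and egg-5 added into 1 gene these were 9 of 9. No gene was called for skn-1 RNAi in either strain, or for the difference between the strains, under any alternative. Relative to the germline list, 3 genes were called, and 2 to 4 when 1 library was left out. With log2(CPM + 1) there were 6, where chs-1 (−0.46), egg-2 (−0.54) and cpg-1 (−0.75) were called lower as well. The shares of all genes called with that setting, or without 1 library, are not given. The added calls therefore cannot be read as particular to these genes. The setting log2(CPM + 1) moved the median of the 10 genes from −0.26 to −0.41, and mbk-2 from 1.26 to 0.97. The germline list was low in glp-1(ts) on vector (means of 2.25, 2.33 and 3.25 log2 CPM), where an added 1 changes values most. Its part in these calls was not tested. On the scale relative to the germline list, egg-3 turned to −0.044 with log2(CPM + 1). There egg-4 turned to −0.10 when it was added to egg-5, and to −0.021 without replicate 3 of glp-1(ts) on vector (range without 1 library −0.021 to 0.48). A fit that added the replicate block left all fold changes as they were (median −3.20 for glp-1(ts) over WT on vector), called the same number of genes in each comparison (10, 10, 0, 0, 0 and 3), and changed no call. A block within each strain called none of the 10 genes for skn-1 RNAi either, and for the difference between the strains it put 3 of them at an unadjusted p under 0.05 (10.7% of all genes), against 0 without it.

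Values that were not called changed sign as follows. Centring on the reference genes gave chs-1 −0.013, egg-3 −0.063 and cpg-2 −0.047 for skn-1 RNAi in WT, and mbk-2 0.056 for the difference between the strains. When 1 library was left out, the values for skn-1 RNAi in WT ran from −0.38 to 0.22 for cbd-1, −0.13 to 0.22 for chs-1, −0.42 to 0.24 for cpg-1, −0.28 to 0.29 for cpg-2, −0.071 to 0.20 for egg-1, −0.11 to 0.025 for egg-2, −0.089 to 0.12 for egg-3, −0.028 to 0.33 for egg-4, −0.21 to 0.10 for egg-5 and −0.25 to 0.12 for mbk-2. In glp-1(ts) egg-4 ran from −0.92 to 0.038, and for the difference between the strains mbk-2 ran from −0.21 to 0.16. The cause of these changes was not tested. Unknown depth and 3 libraries a group limit what could be seen.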
